A study of Mus musculus with 12 samples.

Results

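The 9 genes described here encode the surface targets at which immunotherapy of neuroblastoma is aimed, or the enzymes that make them. They were taken by symbol, and all 9 were found among the 32289 features of the count tables. B4galnt1, St8sia1 and St3gal5 encode the glycosyltransferases that build the ganglioside GD2. Cd276, L1cam, Gpc2, Ncam1, Cd24a and Cd47 encode surface proteins. RNA was counted in single cells of the superior mesenteric ganglion (SMG), a sympathetic ganglion of the abdomen, from mice of the strain 129+Ter/SvJcl. A 3-week wild-type (WT) mouse and a 6-week Th-MYCN+/- mouse gave 1 library each, and 10 libraries came from 10 3-week Th-MYCN+/- mice. Th-MYCN+/- mice are hemizygous for a transgene in which the rat tyrosine hydroxylase promoter drives human MYCN in cells of the sympathetic lineage. The normal neurons and other classes set beside the neuroblasts come from the same transgenic ganglia, except in the WT mouse. The 6-week ganglion was picked by the study because it carried a macroscopic tumor, so it stands for an established tumor and not for 6-week ganglia in general. The measured quantity is RNA, and neither the proteins nor the GD2 lipid were measured.

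GD2 is a glycolipid with a pair of sialic acids that is abundant on neuroblastoma cells and is the target of antibodies used in the clinic. GM3 synthase (St3gal5) adds the first sialic acid to lactosylceramide, GD3 synthase (St8sia1) adds the second, and GM2/GD2 synthase (B4galnt1) adds the N-acetylgalactosamine that turns GD3 into GD2. Gpc2 encodes glypican 2, a heparan sulfate proteoglycan of developing neurons, and Cd276 encodes B7-H3, a relative of the B7 immune ligands. L1cam and Ncam1 encode neural adhesion proteins of the immunoglobulin superfamily. Cd47 and Cd24a encode surface proteins that inhibit phagocytes, Cd47 through the receptor Sirpa and Cd24a through Siglec receptors.

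Positions are given in the mouse build GRCm38. The 4 whose RNA passed the test between neuroblasts and ganglion neurons are Gpc2 (chr5:138273655-138280005, minus strand), Cd276 (chr9:58524298-58555437, minus strand), L1cam (chrX:73853778-73896105, minus strand) and Cd47 (chr16:49800533-49915010, plus strand). The other members are B4galnt1 (chr10:127165225-127172330, plus strand), St8sia1 (chr6:142821545-142964452, minus strand), St3gal5 (chr6:72097592-72154571, plus strand), Ncam1 (chr9:49502136-49798925, minus strand) and Cd24a (chr10:43578284-43584265, plus strand). L1cam overlaps Arhgap4 on the same strand, and Gpc2 overlaps the gene model Gm43720 on the same strand, which was not a feature of the count tables. Reads from such overlaps cannot be assigned with certainty.

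RefSeq (GRCm38.p6) gave promoter sequences, from 250 bases before to 50 bases after the start site, for 6 of the 9 members. The 4 shown belong to the members that differed between neuroblasts and ganglion neurons, because the transgene product MYCN is a transcription factor that binds E-box sequences. Capitals mark CACGCG or its reverse complement CGCGTG, a variant E-box, searched on both strands.
Gpc2: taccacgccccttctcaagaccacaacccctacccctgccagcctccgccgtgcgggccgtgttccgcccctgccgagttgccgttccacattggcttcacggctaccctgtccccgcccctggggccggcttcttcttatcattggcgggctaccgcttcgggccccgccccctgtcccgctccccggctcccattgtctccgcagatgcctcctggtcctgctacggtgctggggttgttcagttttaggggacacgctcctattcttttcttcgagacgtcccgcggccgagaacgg
Cd276: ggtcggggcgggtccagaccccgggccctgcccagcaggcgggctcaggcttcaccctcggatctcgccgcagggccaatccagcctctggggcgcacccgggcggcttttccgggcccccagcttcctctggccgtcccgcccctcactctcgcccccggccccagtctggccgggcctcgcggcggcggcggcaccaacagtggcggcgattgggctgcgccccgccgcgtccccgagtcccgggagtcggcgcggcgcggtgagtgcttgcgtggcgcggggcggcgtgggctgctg
L1cam: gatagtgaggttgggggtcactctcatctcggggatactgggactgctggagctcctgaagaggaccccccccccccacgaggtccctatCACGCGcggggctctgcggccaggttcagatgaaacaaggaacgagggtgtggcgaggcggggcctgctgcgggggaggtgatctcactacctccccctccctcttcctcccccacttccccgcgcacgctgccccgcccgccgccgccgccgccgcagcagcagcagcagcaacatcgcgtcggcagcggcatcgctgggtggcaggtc
Cd47: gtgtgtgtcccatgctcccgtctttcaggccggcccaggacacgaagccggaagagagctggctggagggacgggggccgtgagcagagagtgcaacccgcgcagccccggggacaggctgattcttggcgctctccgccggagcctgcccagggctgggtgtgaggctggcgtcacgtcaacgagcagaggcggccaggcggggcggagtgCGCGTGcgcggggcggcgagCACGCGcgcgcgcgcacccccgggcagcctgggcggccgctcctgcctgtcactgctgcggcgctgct

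These windows lie at chr5:138279888-138280187 (Gpc2, minus strand), chr9:58554984-58555283 (Cd276, minus strand), chrX:73880741-73881040 (L1cam, minus strand) and chr16:49855404-49855703 (Cd47, plus strand). The canonical E-box CACGTG was in 0 of the 6 member promoters, and 7.15% of 32851 RefSeq promoters of the same length held it. The variant CACGCG was in 3 of the 6, with 2 matches in Cd47, 1 in L1cam and 2 in St8sia1, and 9.27% of all promoters held it. The GC box GGGCGG, or CCGCCC on the other strand, was in all 6, against 35.7% of all promoters. The GC content of the 6 windows was 64.7% to 78.3%, and the median over all promoters was 52.7%. The variant was in the windows of L1cam and Cd47, whose RNA was lower in neuroblasts, and not in those of Gpc2 and Cd276, whose RNA was higher. St8sia1, with the variant, and St3gal5, without it, did not pass the test between these classes. A link of the variant to direction was not tested. A match describes these letters and is not a binding site.

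After cell calling, the 12 libraries held 12019 cells, 522 to 1836 per library, with 1147772 to 6388766 UMIs (unique molecular identifiers, each a counted RNA molecule) and a median of 555.5 to 2367 UMIs per cell. Cells were clustered without the 9 members, their pathway genes or the transgene. Clusters were named by marker lists, and in each named class at least 11 of its 11 to 17 listed markers were higher than in the other cells. In the 3-week Th-MYCN+/- libraries, 2821 cells were neuroblast-like, 2484 ganglion-like (the sympathetic neurons) and 2233 Schwann-like. The smaller classes were 419 endothelial-like, 166 macrophage-like, 92 fibroblast-like and 121 myofibroblast-like cells. Human MYCN RNA was read as a check of the classes. It was at 84.5 to 551 CPM (UMIs of the gene, scaled to a total of 1000000 UMIs of the summed cells) in neuroblast-like cells and at 0 to 9.27 CPM in ganglion-like cells. The WT mouse lacks the transgene, so the 0 in its neuroblast-like cells is no check. Those cells held 8166 UMIs, where 3 UMIs would be 367 CPM. In Schwann-like and endothelial-like cells of the 3-week Th-MYCN+/- mice the medians of human MYCN were 1.07 and 0 CPM. The highest levels there were 142 CPM (Schwann-like, replicate 6) and 82.4 CPM (endothelial-like, replicate 7). Replicate 2 stood apart: 82.2% of its cells were ganglion-like, only 50 were neuroblast-like, with 35524 UMIs in all, and 38.9% of its UMIs were in cells, against 61.1% to 87.1% in the others. Between libraries, 93 cell barcodes were shared (187 cells). An unnamed cluster of 2148 cells with a median of 484 UMIs was led by DNA replication genes and kept out of the classes. Its cells held human MYCN at 54.1 to 382 CPM in the 3-week Th-MYCN+/- mice.

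Levels below are CPM of the UMIs summed over a class in a mouse, given as lowest, median and highest over the 10 3-week Th-MYCN+/- mice. Differences are log2 differences with their standard errors (SE) from edgeR's quasi-likelihood test with the mouse as a block, and p-values are adjusted by Benjamini-Hochberg over all genes tested. With the block, SEs and p-values rest on how the difference within a mouse varied from mouse to mouse. They also rest on counting error and on the spread of other genes, from which edgeR borrows. The plot of levels by class shows the 9 genes in the 7 classes.

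**Figure D1:**
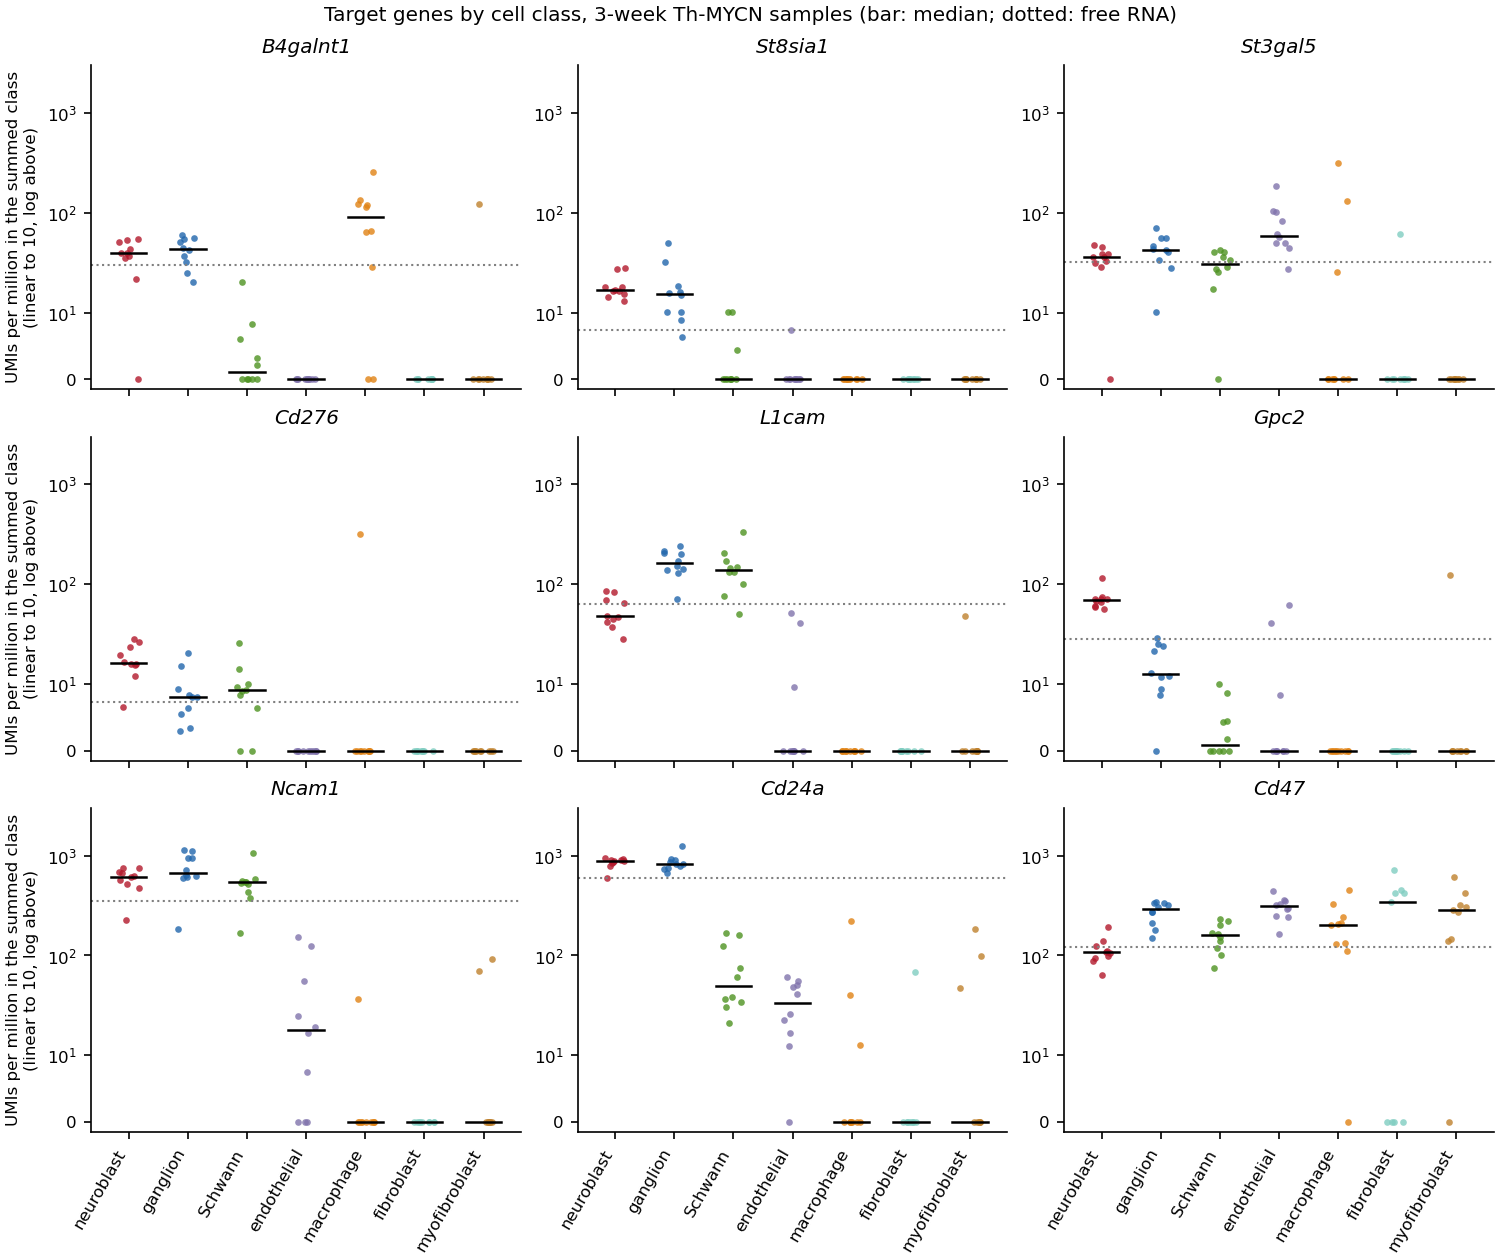
Levels of the 9 target genes (CPM, linear to 10 and logarithmic above) in 7 cell classes of the 3-week Th-MYCN+/- mice. Points are mice, black bars are medians, and the dotted line is the median level in free RNA of empty droplets. Gpc2 was at 56.3 CPM or more in all neuroblast-like sums and at 29.0 CPM or less in all ganglion-like sums. The 56.3 CPM is replicate 2 and rests on 2 UMIs. The ranges of Cd24a and Ncam1 overlapped between the 2 classes.

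Of the 9 members, 2 were higher and 2 lower in neuroblast-like than in ganglion-like cells, and 5 did not pass the test. All 9 passed the filter on low counts. Over all 7189 genes tested, 66.8% passed, 35.2% higher and 31.7% lower, so the members' share of calls was below the background. Human MYCN, for scale, had medians of 297 CPM in neuroblast-like cells (4355 UMIs) and 1.53 CPM in ganglion-like cells (15 UMIs). It passed the filter through its neuroblast-like sums, so no test is given.

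Gpc2 was the member with the clearest neuroblast level. In replicates 1 to 10 it was at 60.7, 56.3, 59.0, 68.3, 65.8, 74.4, 70.9, 117, 70.2 and 70.8 CPM in neuroblast-like cells, from 995 UMIs. In the ganglion-like cells of the same mice it was at 0, 12.2, 9.27, 29.0, 21.3, 8.33, 25.3, 24.2, 11.9 and 12.9 CPM, from 146 UMIs. The groups did not overlap, and neuroblast-like cells were higher in 10 of 10 mice. The lowest neuroblast-like value, 56.3 CPM in replicate 2, rests on 2 UMIs. Its 95% counting interval of 6.82 to 203 CPM reaches into the ganglion-like range. The difference was 2.05 (SE 0.24, 95% interval 1.59 to 2.51, adjusted p = 2.59e-07), or 4.14-fold.

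Cd276 was lower in count and less sharply separated. Its levels were 6.54, 16.3 and 28.2 CPM in neuroblast-like cells, from 232 UMIs, and 2.97, 8.04 and 20.3 CPM in ganglion-like cells, from 44 UMIs. The 28.2 CPM belong to replicate 2, where 1 of 50 neuroblast-like cells held a UMI of Cd276. The ranges overlapped, and neuroblast-like cells were higher in 8 of 10 mice. The difference was 1.29 (SE 0.31, 95% interval 0.69 to 1.89, adjusted p = 0.000991), or 2.44-fold. Cd276 passed the filter mainly through its neuroblast-like sums, and its ganglion-like median was close to that of free RNA (7.38 CPM). With no filter on low counts the difference was 1.26 (adjusted p = 0.00107), resting on the same 44 ganglion-like UMIs.

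L1cam and Cd47 went the other way. L1cam was at 36.9, 28.2, 44.5, 85.0, 64.7, 47.4, 41.4, 48.0, 82.5 and 69.7 CPM in the neuroblast-like cells of replicates 1 to 10. In their ganglion-like cells it was at 152, 71.5, 204, 202, 239, 142, 172, 129, 138 and 216 CPM. The ranges touched only through the low ganglion-like value of replicate 2, and within each of the 10 mice neuroblast-like cells were lower. In replicate 2, 1 of 50 neuroblast-like cells held a UMI of L1cam. The difference was -1.53 (SE 0.16, 95% interval -1.84 to -1.22, adjusted p = 5.03e-08), or 2.89-fold lower. Cd47, whose product inhibits engulfment by macrophages, was at 63.8, 108 and 193 CPM in neuroblast-like cells and at 150, 289 and 345 CPM in ganglion-like cells. It was lower in 10 of 10 mice by 1.24 on the log2 scale (SE 0.14, adjusted p = 2.62e-07), or 2.36-fold.

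None of the 3 GD2 synthesis enzymes passed the test between neuroblast-like and ganglion-like cells. St3gal5, the first enzyme, was at 0, 36.3 and 48.0 CPM in neuroblast-like and 10.1, 42.7 and 70.9 CPM in ganglion-like cells, a difference of -0.13 (95% interval -0.57 to 0.31, adjusted p = 0.620). St8sia1, the second, was at 13.0, 16.7 and 28.2 CPM against 6.32, 15.5 and 49.99 CPM, a difference of 0.12 (95% interval -0.41 to 0.65, adjusted p = 0.7104). B4galnt1, the last, was at 0, 39.3 and 54.7 CPM against 20.3, 43.2 and 59.3 CPM, a difference of -0.09 (95% interval -0.54 to 0.35, adjusted p = 0.730). In each of the 3, neither class was higher in more than 6 of 10 mice. The values of 0 for B4galnt1 and St3gal5 belong to replicate 2 with its 35524 neuroblast-like UMIs. So does the 28.2 CPM of St8sia1, which 1 of its 50 neuroblast-like cells held. The intervals leave room for differences of up to about the size of their bounds, so equal levels were not shown.

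Ncam1 and Cd24a, with the most UMIs of the members in both classes, gave the narrowest intervals. Ncam1 was at 225, 615 and 753 CPM in neuroblast-like cells (8525 UMIs) and 183, 676 and 1132 CPM in ganglion-like cells (4179 UMIs). The difference was -0.24 (95% interval -0.50 to 0.02, adjusted p = 0.115), with neuroblast-like cells lower in 7 of 10 mice. Cd24a was at 591, 885 and 945 CPM (11908 UMIs) against 676, 827 and 1233 CPM (6356 UMIs). Its difference was 0.06 (95% interval -0.17 to 0.29, adjusted p = 0.672), with 5 mice on either side.

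Markers of other cells moved with this comparison. The summed level of the 13 Schwann-like markers was 177, 316 and 4335 CPM in neuroblast-like cells and 740, 1294 and 2674 CPM in ganglion-like cells, where 35500 CPM was the median in Schwann-like cells themselves. Free RNA, estimated from empty droplets, could make up a median of 0.221% of the UMIs of neuroblast-like sums and 4.64% of ganglion-like sums. Gpc2 was at 28.4 CPM in free RNA, above the ganglion-like median of 12.5 CPM, and L1cam was at 63.5 CPM there. Gpc2, L1cam and Cd47 kept their call and direction in all 15 alternatives, free RNA subtracted among them, and Cd276 did so in the 13 in which it passed the low-count filter. Median depth differed as well, at 4297 UMIs per neuroblast-like cell and 1150 per ganglion-like cell, and its part in these differences was not tested beyond those alternatives. Without the 5% of cells with most UMIs in each library, Gpc2 was higher by 1.58 (adjusted p = 0.000254) and L1cam lower by 2.14 on the log2 scale (adjusted p = 3.28e-10), while the ganglion-like median of Cd276 went from 8.04 to 1.17 CPM and Cd276 was not tested.

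**Figure D2:**
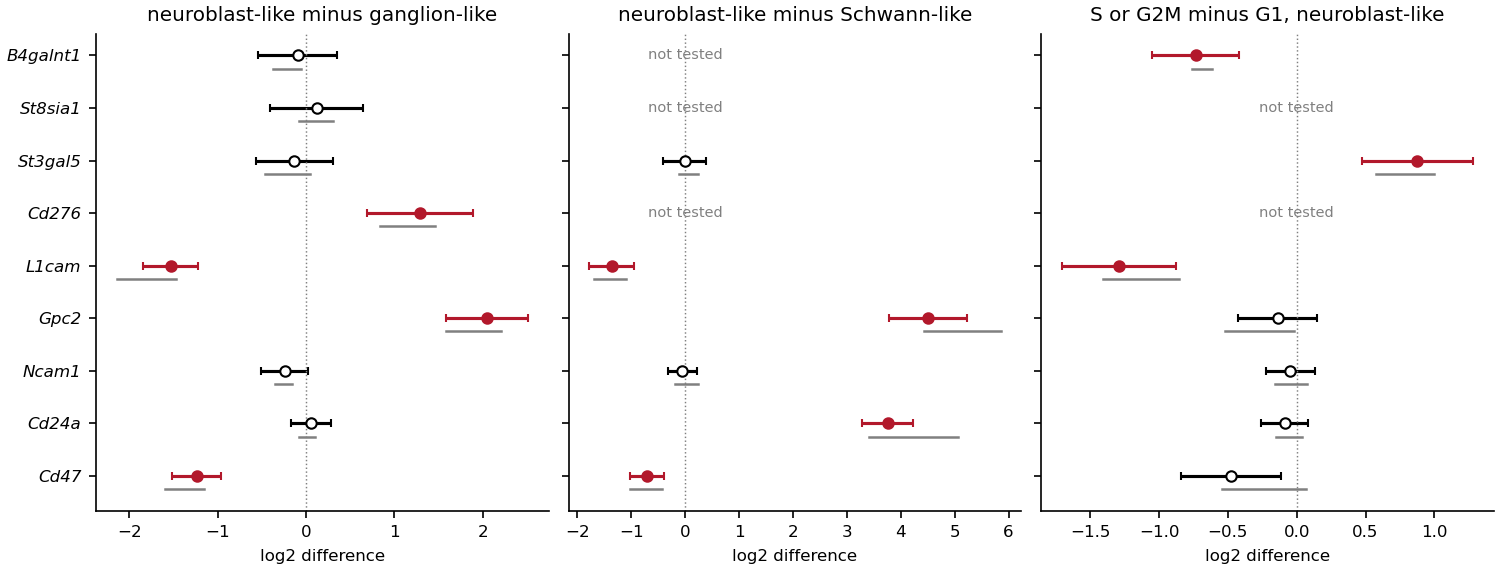
Log2 differences of the 9 genes in 3 comparisons within 3-week Th-MYCN+/- mice (neuroblast-like minus ganglion-like, neuroblast-like minus Schwann-like, and S or G2M minus G1 neuroblast-like cells). Points are edgeR estimates with 95% intervals, filled where the adjusted p was below 0.05, and grey bars span the alternatives. Gpc2 was positive and L1cam and Cd47 negative in both class comparisons, and the Schwann-like estimate of Gpc2 rests on 6 Schwann-like UMIs and is a description.

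The comparison with Schwann-like cells, the glia of the ganglion, covered 6 members that passed the low-count filter, of which 2 were higher and 2 lower in neuroblast-like cells. Over 5577 genes tested, 69.7% passed, 38.4% higher and 31.3% lower. Gpc2 was at 0, 0.892 and 10.1 CPM in Schwann-like cells, from 6 UMIs in 2431184, below its lowest neuroblast-like level of 56.3 CPM (2 UMIs in replicate 2). It passed the filter only through its neuroblast-like sums, so its call is a description and no test is given. Cd24a was at 21.3, 49.5 and 167 CPM there and was higher in neuroblast-like cells by 3.76 (SE 0.24, adjusted p = 7.07e-11). L1cam was at 49.99, 138 and 334 CPM in Schwann-like cells, and neuroblast-like cells were lower in 10 of 10 mice by 1.36 on the log2 scale (SE 0.21, adjusted p = 1.32e-05).

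L1cam RNA was therefore higher in both other neural crest classes than in the neuroblasts. Cd47 was at 75.0, 159 and 233 CPM in Schwann-like cells, and neuroblast-like cells were lower in 8 of 10 mice by 0.71 on the log2 scale (SE 0.16, adjusted p = 0.000628). With no filter on low counts that adjusted p was 0.0620. Ncam1, at 167, 540 and 1067 CPM in Schwann-like cells, differed by -0.05 (adjusted p = 0.749). St3gal5, at 0, 30.9 and 42.8 CPM, differed by -0.01 (adjusted p = 0.978).

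The other GD2 enzymes were scarce in glia. B4galnt1 had 7 UMIs and St8sia1 had 4 UMIs over all Schwann-like cells of the 10 mice, at highest levels of 20.2 and 10.3 CPM. Cd276 had 24 UMIs, with levels of 0, 9.04 and 25.9 CPM. These 3 members failed the low-count filter and were not tested there.

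In endothelial-like cells, 3 members were tested, with 2 higher and 1 lower in neuroblast-like cells, and 65.0% of 2151 genes passed. Cd47 was at 164, 310 and 440 CPM, and neuroblast-like cells were lower by 1.80 on the log2 scale (adjusted p = 9.35e-08). The members called higher were Ncam1, at 0 to 155 CPM in endothelial-like cells (18 UMIs), and Cd24a, at 0 to 61.0 CPM (20 UMIs). Both passed the filter through their neuroblast-like sums, so these levels are given without a test. B4galnt1 and Cd276 had 0 of 649086 endothelial-like UMIs, where 3 UMIs would be 4.62 CPM. Summed over the mice, neuroblast-like cells were at least 9.63-fold higher in B4galnt1 and at least 3.76-fold higher in Cd276.

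St3gal5 was an exception among the synthesis enzymes. It was at 27.5, 59.3 and 186 CPM in endothelial-like cells, from 41 UMIs, and this was above the neuroblast-like level of the same mouse in 10 of 10 mice. It failed the low-count filter, and with no filter the difference was -0.32 (adjusted p = 0.551).

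In macrophage-like cells, 2 members were tested and both were higher in neuroblast-like cells, where 70.0% of 1045 genes passed. Both passed the filter through their neuroblast-like sums, so their calls are descriptions. Cd24a had 8 UMIs in macrophage-like cells and was at 0 in 7 of 10 mice, with a highest level of 222 CPM. Ncam1 had 1 UMI in macrophage-like cells, and the ratio of the summed levels was 186 (95% counting interval 33.4 to 7363). L1cam, Gpc2 and St8sia1 had 0 of 291728 macrophage-like UMIs, where 3 UMIs would be 10.3 CPM. Cd47 was at 0, 204 and 452 CPM there.

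B4galnt1 had the most UMIs of the 3 synthesis genes in macrophage-like cells. Its level was 0, 90.2 and 259 CPM, from 32 UMIs, and macrophage-like cells were higher than the neuroblast-like cells of the same mouse in 7 of 10 mice. It failed the low-count filter, and with no filter the difference was -0.98 (adjusted p = 0.0358). The median in free RNA was 30.2 CPM. The 17 neuroblast-like markers summed to 637, 1954 and 2684 CPM in macrophage-like cells, with Cartpt at 0, against a median of 24030 CPM in neuroblast-like cells. St3gal5 had 5 UMIs in macrophage-like cells and was at 0 in 7 of 10 mice, with a highest level of 318 CPM. St8sia1, which acts before B4galnt1 on the way to GD2, was not among the macrophage-like UMIs.

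Fibroblast-like and myofibroblast-like cells were few, and their values rest on 75010 and 103711 UMIs in 9 mice each. Against fibroblast-like cells 1 member was tested and was higher (54.2% of 402 genes passed): Cd24a, with 1 UMI there and a ratio of 66.8. Against myofibroblast-like cells 5 members were tested, 4 higher and 1 lower (45.8% of 3674 genes passed). Of these, Cd24a, Ncam1, Gpc2 and L1cam passed the filter through their neuroblast-like sums and get no test here. Cd24a had 4 UMIs in myofibroblast-like cells and was at 0 in 6 of 9 mice, with a highest level of 183 CPM. Gpc2 and L1cam had 1 UMI each. For Gpc2 the summed levels gave a ratio of 7.74 (95% counting interval 1.39 to 306), and Ncam1 had 2 UMIs, a ratio of 33.2 (9.19 to 274). Cd47 was at 0, 285 and 616 CPM in myofibroblast-like cells, and neuroblast-like cells were lower by 0.93 on the log2 scale (adjusted p = 0.0453), a call lost in 7 of 13 alternatives.

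The order of the median levels thus differed between genes. For Gpc2 and Cd276, neuroblast-like cells came first. For Cd24a, neuroblast-like and ganglion-like cells came first and did not differ beyond their spread, and for Ncam1 these 2 classes and Schwann-like cells overlapped. For L1cam, ganglion-like and Schwann-like cells led, with overlapping ranges. For Cd47, fibroblast-like and endothelial-like cells led with ganglion-like and myofibroblast-like cells close behind and overlapping, and neuroblast-like cells came last of the 7 classes.

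The share of cells with a UMI depends on depth, so each cell was thinned to 1000 UMIs and shallower cells were left out, as were mice with fewer than 20 such cells. This kept 2654 of 2821 neuroblast-like, 1375 of 2484 ganglion-like, 1069 of 2233 Schwann-like and 195 of 419 endothelial-like cells. Gpc2 was seen in 5.14%, 7.24% and 11.2% of neuroblast-like cells (lowest, median and highest mouse), and in a median of 1.28% of ganglion-like cells. It was seen in 0 of 195 endothelial-like cells, a count that allows shares as high as 1.54%. Before thinning the Gpc2 medians were 26.5% and 4.93% in neuroblast-like and ganglion-like cells.

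L1cam was seen in a median of 4.17% of neuroblast-like, 15.3% of ganglion-like and 10.8% of Schwann-like cells, and Cd47 in 7.71%, 23.3% and 13.5%. Cd24a, at 58.3%, 47.6% and 2.51%, was the most widely seen member in neuroblast-like and ganglion-like cells, and Ncam1, at 48.2%, 45.6% and 39.4%, in Schwann-like cells. The medians of B4galnt1 were 4.18%, 4.71% and 0%, and those of St8sia1 were 1.39%, 0% and 0%. The ganglion-like median of St8sia1 does not show absence. It was seen in 0.957% and 1.81% of ganglion-like cells in replicates 2 and 4. The other mice, where it was not seen, had only 21 to 86 such cells each. Cd276 was seen in 1.198% of neuroblast-like and 0.160% of ganglion-like cells. At this depth 15.5% of neuroblast-like cells in the median mouse held no UMI of any member, against 17.2% of ganglion-like, 44.9% of Schwann-like and 65.7% of endothelial-like cells.

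RNA of both B4galnt1 and St8sia1, the 2 enzymes that turn GM3 into GD2, was rarely seen in the same cell at these depths. At 1000 UMIs, 3 of 2654 neuroblast-like cells held both. At 3000 UMIs, 8 of 2185 did, a median of 0.277% over mice, where the product of the separate shares had a median of 0.513%. In ganglion-like cells 1 of 356 did at 3000 UMIs. A cell without a UMI of a gene may still express it, so these shares are limits of counting and not of expression.

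Neuroblast-like cells were then split by cell cycle phase, called at 1000 UMIs from S and G2M genes. In the 9 mice with at least 5 cells in each set, 1949 cells were in S or G2M and 705 in G1. Of 7 members tested, 1 was higher and 2 lower in S or G2M than in G1, and 4 did not pass. Over 5944 genes, 33.7% passed, 17.0% higher and 16.7% lower.

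The 2 GD2 enzymes that could be tested moved in opposite directions with the cell cycle. B4galnt1 was at 20.5, 36.2 and 47.8 CPM in S or G2M and at 26.3, 57.0 and 83.9 CPM in G1. It was lower in cycling cells in 8 of 9 mice, by 0.73 on the log2 scale (SE 0.16, adjusted p = 0.00191). St3gal5 was at 30.7, 41.7 and 56.6 CPM in S or G2M and at 13.8, 19.2 and 37.8 CPM in G1. It was higher in cycling cells in 9 of 9 mice, by 0.88 (SE 0.21, adjusted p = 0.00325), but with the unnamed low-depth cluster counted as neuroblast-like its adjusted p was 0.0588. St8sia1 failed the low-count filter, at medians of 16.5 and 14.5 CPM.

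L1cam showed the largest change among the members. It was at 30.9, 41.1 and 52.2 CPM in S or G2M and at 53.3, 73.6 and 249 CPM in G1, with no overlap, a difference of -1.29 (SE 0.21, adjusted p = 0.000134). Cd47 differed by -0.48 (adjusted p = 0.0563), Gpc2 by -0.14 (adjusted p = 0.507), Cd24a by -0.09 (adjusted p = 0.458) and Ncam1 by -0.05 (adjusted p = 0.727). Human MYCN differed by 0.16 (adjusted p = 0.449). The 15 ganglion-like markers moved with this split, at 1372, 1704 and 2078 CPM in S or G2M and 2560, 6953 and 22110 CPM in G1. In cells under 0.2 on an axis that runs from 0 at the median neuroblast-like cell to 1 at the median ganglion-like cell (1881 in S or G2M and 562 in G1), L1cam was lower by 0.86 on the log2 scale (adjusted p = 0.000466), B4galnt1 by 0.74 (adjusted p = 0.00299) and Gpc2 by 0.52 (adjusted p = 0.0137), and St3gal5 was higher by 0.89 (adjusted p = 0.00651).

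A few neuroblast-like cells lay toward the ganglion neurons on the same axis. It was built on 133 ganglion and 37 malignant genes, which the study called on these samples and which hold none of the 9 members. Differences of related genes between the ranges are therefore partly built in. At a limit of 0.3, 76 cells were in the intermediate range and 2587 in the malignant range, and 72 cells were within 0.05 of the limit, so these are ranges and not types. Only 5 mice had at least 5 cells in each range, too few for the planned test, and their values are given without one.

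In each of these 5 mice, Gpc2 and Cd276 were lower and L1cam and Cd47 were higher in the intermediate than in the malignant range. Gpc2 was at 14.8, 20.2 and 42.4 CPM in the intermediate range and 60.8, 80.2 and 119 CPM in the malignant range, with no overlap. Cd47 was at 163, 254 and 421 CPM against 40.1, 106 and 116 CPM, also with no overlap. Cd276 was at 0, 6.66 and 10.4 CPM against 15.7, 18.5 and 27.1 CPM, with 10 UMIs in the intermediate range. L1cam was at 60.7, 123 and 692 CPM against 36.1, 47.8 and 65.0 CPM, and B4galnt1 was higher in the intermediate range in 5 of 5 mice, at medians of 66.5 and 45.9 CPM. The median of human MYCN was 396 CPM in the malignant and 85.4 CPM in the intermediate range, and that of the summed ganglion-like markers was 2016 and 27150 CPM. Median depth was 7646 UMIs in intermediate-range and 4346 UMIs in malignant-range cells.

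With the limit at 0.2, 9 mice had enough cells (211 intermediate-range and 2443 malignant-range cells) and 28.1% of 6029 genes passed edgeR's test. The ranges were cut by genes called on these samples, so the calls between ranges are descriptions. L1cam was higher in the intermediate range by 1.46 (adjusted p = 0.00243) and Cd47 by 1.11 (adjusted p = 0.00146), and Gpc2 was lower by 0.90 on the log2 scale (adjusted p = 0.0220). B4galnt1 differed by 0.59 (adjusted p = 0.102), St3gal5 by -0.66 (adjusted p = 0.116), Ncam1 by -0.04 (adjusted p = 0.841) and Cd24a by -0.10 (adjusted p = 0.624). Cd276 and St8sia1 failed the low-count filter. At the limit of 0.3, 4 other settings of clustering or cell filters left 6 or 7 mice and could be fitted. Under them the differences were 1.64 to 2.32 for L1cam and 1.10 to 1.64 for Cd47, all called. Gpc2 differed by -0.96 to -2.84 and lost its call under log-normalization (adjusted p = 0.181), where 9.58% of genes passed. B4galnt1 differed by 0.41 to 1.09 and was called only with the low-depth cluster added to the neuroblast-like cells (0.63, adjusted p = 0.0421).

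**Figure D3:**
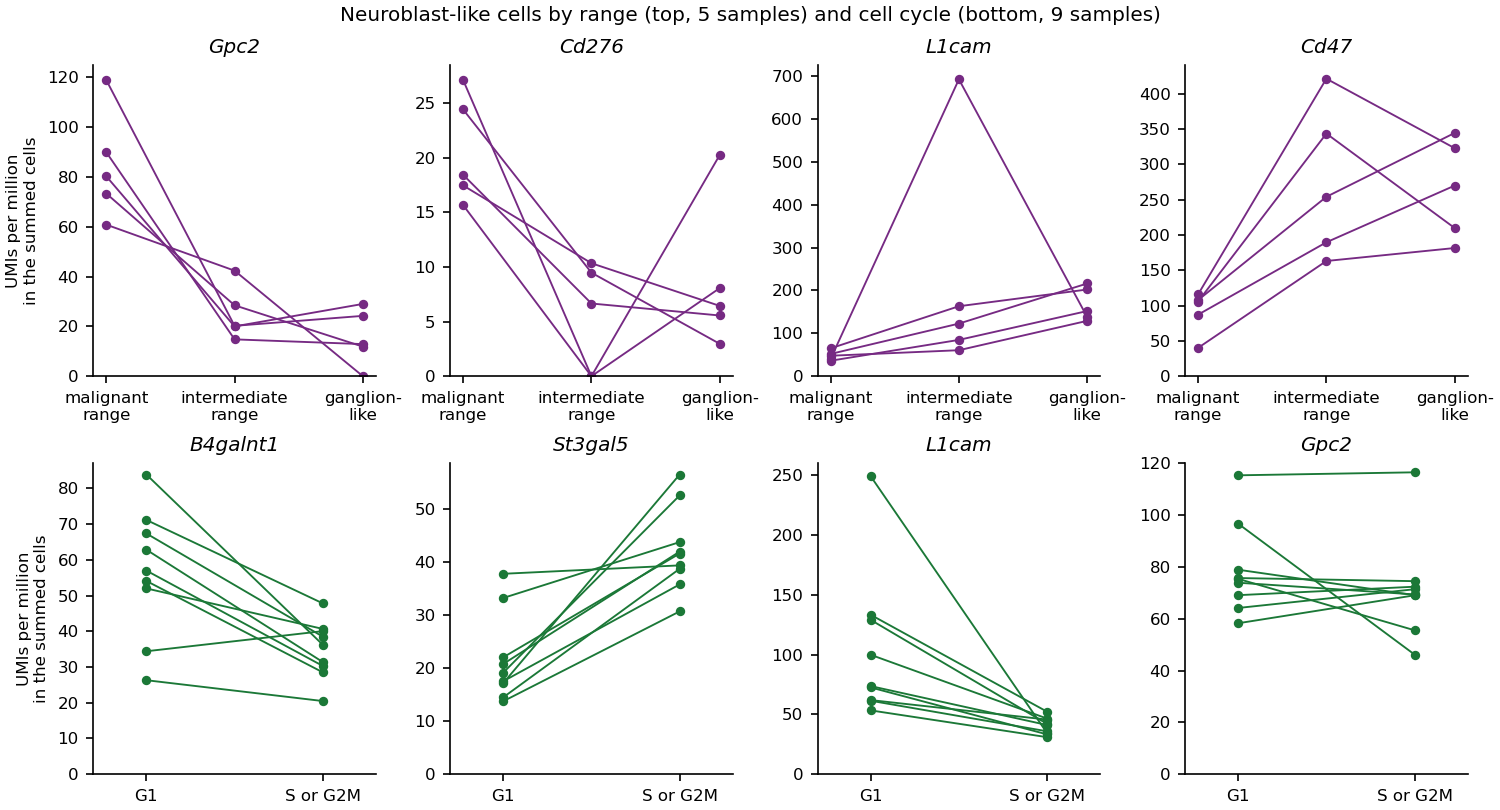
Levels (CPM) within neuroblast-like cells, each line a 3-week Th-MYCN+/- mouse. The upper panels give Gpc2, Cd276, L1cam and Cd47 in the malignant range, the intermediate range and ganglion-like cells of 5 mice, and the lower panels give B4galnt1, St3gal5, L1cam and Gpc2 in G1 and in S or G2M in 9 mice. St3gal5 was higher and L1cam lower in S or G2M in 9 of 9 mice.

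The other genes of the pathways were taken from fixed lists, with calls from the comparison of neuroblast-like with ganglion-like cells, over whose tested genes the median difference was 0.08. A gene near 0 in 1 class passes the low-count filter through the other alone, so the counts describe the genes tested. Of 16 genes for ganglioside precursors and branching, 8 were tested, 1 was higher and 5 were lower, with a median of -0.58, where 66.8% of all tested genes were called, 35.2% higher and 31.7% lower. The largest was St6galnac5, which adds a further sialic acid to gangliosides of another branch. It was at 69.1, 179 and 210 CPM in ganglion-like cells and 0, 3.74 and 36.9 CPM in neuroblast-like cells. It passed the filter through its ganglion-like sums, so its difference of -4.07 is a description and no test is given. B4galt6, which makes lactosylceramide, the substrate of St3gal5, differed by -1.96 (adjusted p = 5.42e-08). St6galnac6 differed by -1.57 (adjusted p = 4.62e-07) and Cmas, which activates sialic acid, by -0.65 (adjusted p = 0.000493). St8sia3, another sialyltransferase, was higher by 0.61 (adjusted p = 0.0462).

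An enzyme that acts after GD2 was scarce. B3galt4, which extends GD2 to GD1b, had 57 UMIs in neuroblast-like cells (0, 3.25 and 6.85 CPM) and 54 in ganglion-like cells (0, 6.93 and 18.5 CPM). Of 11 genes of ganglioside breakdown, 7 were tested, 3 were lower and 4 did not pass, with a median of -0.34, where 31.7% of all tested genes were lower. Those lower included Psap (-1.41, adjusted p = 4.06e-08) and Hexa (-0.58, adjusted p = 0.0370). Psap encodes the precursor of the saposins that present glycolipids to lysosomal enzymes, and Hexa encodes part of such an enzyme. Against Schwann-like cells 6 of the 11 were tested and all 6 were lower in neuroblast-like cells, with a median of -1.82, where 31.3% of all tested genes were lower and their median was 0.13.

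Relatives of the surface members went both ways, with 6 of 18 tested, 3 higher and 3 lower, against 35.2% and 31.7% of all tested genes. Gpc6, another glypican, was at 27.4, 40.6 and 56.3 CPM in neuroblast-like cells and at 0, 0.199 and 9.27 CPM in ganglion-like cells, from 6 UMIs. It passed the filter through its neuroblast-like sums and gets no test here. St8sia2, which adds polysialic acid to the Ncam1 protein, was at 0, 27.8 and 40.6 CPM against 0, 10.1 and 24.99 CPM, a difference of 1.56 (adjusted p = 0.000177). Both L1 relatives Chl1 (-3.21, adjusted p = 5.10e-09) and Nrcam (-1.53, adjusted p = 1.63e-05) were lower in neuroblast-like cells, the direction of L1cam.

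Other proposed surface targets that could be tested were lower in neuroblast-like than in ganglion-like cells, 4 of 4 tested among 10 listed, with a median of -2.09, where 31.7% of all tested genes were lower. Slc6a2, the noradrenaline transporter through which MIBG enters cells, was at 0, 19.5 and 356 CPM in neuroblast-like and 493, 1330 and 1678 CPM in ganglion-like cells, a difference of -4.99 (adjusted p = 1.72e-08). Mcam differed by -3.22 (adjusted p = 1.31e-09), Tfrc by -0.96 (adjusted p = 0.00639) and Nectin2 by -0.62 (adjusted p = 0.00433).

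Genes of MHC class I presentation, which T cell therapies against intracellular antigens require, were tested in 5 of 9 cases and were lower in all 5, with a median of -2.97, where 31.7% of all tested genes were lower. They included Tapbp (-3.28, adjusted p = 1.61e-08), H2-K1 (-3.08, adjusted p = 1.58e-06), Psmb8 (-2.97, adjusted p = 5.86e-06) and B2m (-2.55, adjusted p = 1.15e-06). Against Schwann-like cells 6 were tested and 6 were lower, with a median of -4.77, where 31.3% of all tested genes were lower.

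Of 7 receptors and partners of Cd47 and Cd24a, 0 passed the low-count filter against ganglion-like cells. Sirpa, the receptor of Cd47, was at 132, 425 and 637 CPM in macrophage-like cells, 0, 5.60 and 8.96 CPM in neuroblast-like cells and 8.33, 20.5 and 32.3 CPM in ganglion-like cells. Siglecg, a receptor of Cd24a in mice, had 4 UMIs in neuroblast-like cells and 0 in macrophage-like cells. The macrophages that carry Sirpa were thus a small class of these ganglia, 166 of the cells, beside neurons and glia that carry Cd47.

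The WT and 6-week mice are single animals, so their levels are given with exact 95% Poisson intervals that cover counting error only, and no test was made. In the 265 neuroblast-like cells of the 6-week mouse, Gpc2 was at 42.3 CPM (34.3 to 51.6), below all 10 3-week Th-MYCN+/- mice. Of these, the level of replicate 2 rests on 2 UMIs. Split by the axis, Gpc2 in the 6-week mouse was at 57.9 CPM (46.8 to 70.7) in the malignant range and 3.09 CPM (0.375 to 11.2) in the intermediate range. St8sia1 was at 11.8 CPM (7.76 to 17.1), also below all 10, and Cd47 was at 179 CPM (162 to 197), above 9 of 10. Cd47 was higher in the intermediate than in the malignant range of 3-week mice. Its 6-week level is not split by range here, and the part of the mix of cells was not tested. The other 6 members, and human MYCN at 355 CPM, lay within the range of the 3-week mice.

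The WT mouse had 87 ganglion-like cells, the only neurons here that never carried the transgene. Gpc2 and Cd276 had 0 of 309546 UMIs, where 3 UMIs would be 9.69 CPM. Gpc2 was at or under 9.69 CPM in the ganglion-like cells of 3 of the 10 Th-MYCN+/- mice as well. Cd47 was at 394 CPM (327 to 471), above all 10, and Cd24a at 1115 CPM, above 9 of 10. L1cam at 132 CPM, Ncam1 at 675 CPM, B4galnt1 at 48.5 CPM, St3gal5 at 35.5 CPM and St8sia1 at 12.9 CPM lay within the range of the Th-MYCN+/- mice. The WT mouse had 22 neuroblast-like cells with 8166 UMIs, which held 4 UMIs of Ncam1, 1 of Cd24a and 0 of the other 7 members.

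**Figure D4:**
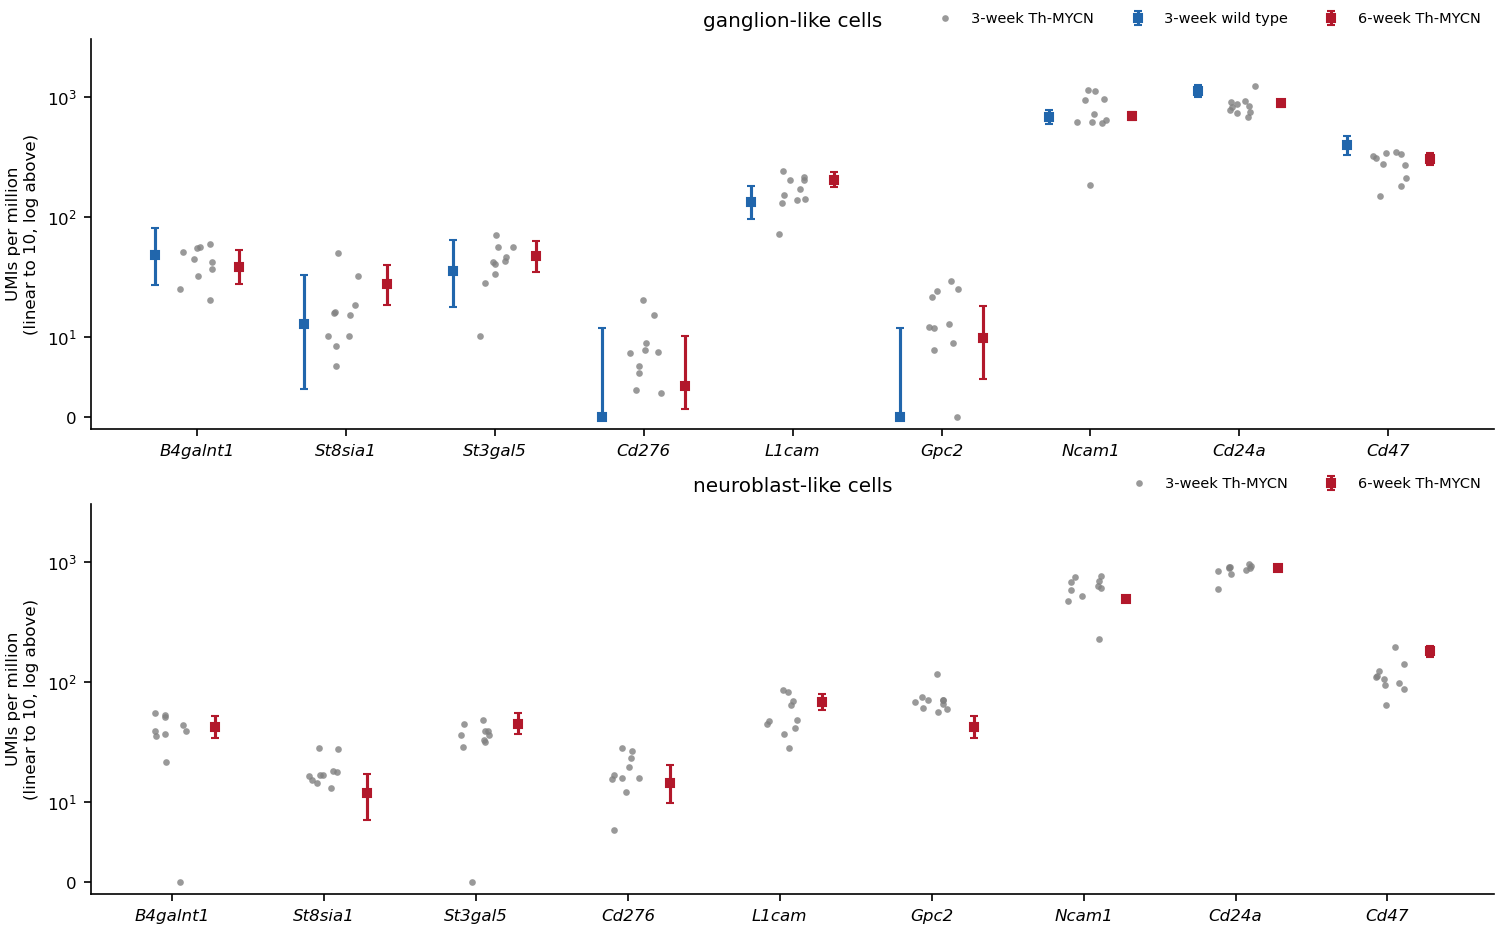
Levels of the 9 genes (CPM) in ganglion-like cells of the WT, 3-week Th-MYCN+/- and 6-week Th-MYCN+/- mice, and in neuroblast-like cells of the last 2 groups. Points are mice, and bars on single mice are exact 95% Poisson intervals. The 6-week mouse lay below all 3-week mice in Gpc2 in neuroblast-like cells, and the WT mouse above all of them in Cd47 in ganglion-like cells.

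The genes with the most similar pattern were found by Pearson correlation of log2 CPM over 68 sums of a class in a mouse, which share libraries and depth, among 6538 genes. L1cam was most like Tmod2 (0.920), Scg3 (0.915) and Zdhhc2 (0.913), and Ncam1 was most like Tmod2 (0.908) and L1cam (0.898). Cd24a was closest to Elavl2 (0.906), a neuronal RNA-binding protein, and St8sia1 to 1500004A13Rik (0.893). Gpc2 was closest to Ecel1 (0.810), Ypel1 (0.797) and Spock1 (0.784), and Cd276 to AW551984 (0.803). B4galnt1 was closest to Arl4c (0.761) and to Coro1a (0.743), an actin-binding protein of leukocytes, and its correlation with St8sia1 was 0.392. St3gal5 (Mvb12b, 0.675) and Cd47 (Lamtor4, 0.755) had no gene as close as the neural members had.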

How the data were processed

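Single cells of dissociated SMG were profiled on the 10x Chromium 3' v1 platform. The deposited matrices hold raw UMI counts per gene and barcode, which the authors made with Cell Ranger 3.0.2 (per the file headers) on mm10. The submitters' processing notes also name Seurat. Cells were called anew by an EmptyDrops-type test (barcodes of at most 100 UMIs as free RNA, 10000 Monte Carlo draws, FDR 0.01) with the filters of the study: at least 200 genes, at most 10% mitochondrial and 60% ribosomal UMIs. No doublet caller was run; an alternative left out the 5% of cells with the most UMIs. Cells were clustered with SCTransform in Seurat 5.3.0 (sctransform 0.4.2, resolution 0.5) without the members, their pathway genes and the transgene. A cluster was named where over 50% of a marker list was at least 1.5-fold higher, and a difference in class sizes from the study may come from these rebuilt names.

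Raw counts were summed per mouse and class (at least 5 cells), only 3-week Th-MYCN+/- mice entered tests (at least 6 mice), and edgeR 4.0.16 was run in R 4.3.3 with filterByExpr, TMM scaling and the mouse as a block, at an FDR of 0.05. Both sums of a pair come from the same mouse, so they are paired by design, and their deviations from the class means correlated at -0.140 to 0.273 between classes and 0.104 to 0.494 between phases. DESeq2 1.42.0 was an alternative. On simulated counts the ganglion-like comparison called 98 of 106 changed genes and 3 unchanged genes, and the myofibroblast-like comparison 23 of 74 changed genes. For shares, cells were thinned to 1000 UMIs, and intervals and limits (3 counts) cover counting error only. The comparison of intermediate with malignant range had 5 mice at its planned limit and was tested only under alternatives that left at least 6.

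The members and gene lists were chosen with earlier results of these data known. All 9 members are named, and of each other list up to 4 called genes with the largest difference, plus genes whose role the text needs; 1 listed gene is not reported here. GC content, position and overlap of genes came from GENCODE and RefSeq on GRCm38. Protein sequences were not used here.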

Additional observations from a re-analysis of the deposited data

Results flagged for a closer look

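In 34 groups of 9 or 10 mice, 9 had a lowest or highest mouse that stood apart by Dixon's criterion, which chance passes in about 1 of 20 groups. Replicate 2 was the low mouse in neuroblast-like cells for St3gal5 (0 CPM, others' median 36.4), Ncam1 (225 CPM, others' median 623) and Cd24a (591 CPM, others' median 889), from 50 cells with 35524 UMIs. Gpc2 was high in the neuroblast-like cells of replicate 8, at 117 CPM from 221 UMIs, where the median of the others was 68.3 CPM. Replicate 6 was high in Cd24a in ganglion-like cells (1233 CPM, 26 cells) and in Ncam1 in Schwann-like cells (1067 CPM, 115 cells). The same Schwann-like cells had the highest human MYCN level of that class (142 CPM). The remaining 3 rest on few UMIs: B4galnt1 in Schwann-like cells of replicate 8 (20.2 CPM, 2 UMIs), B4galnt1 in macrophage-like cells of replicate 5 (259 CPM, 7 UMIs in 15 cells, others' median 65.8) and St3gal5 in endothelial-like cells of replicate 8 (186 CPM, 3 UMIs).

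Clusters that carried no class name also held members. In the 2024 low-depth cells of 3-week Th-MYCN+/- mice (1664725 UMIs), the levels were 41.4 CPM for B4galnt1, 56.5 CPM for St3gal5, 14.4 CPM for Cd276, 70.3 CPM for Gpc2, 529 CPM for Ncam1 and 777 CPM for Cd24a. These levels are summed over mice. That of St3gal5 was above the highest neuroblast-like mouse (48.0 CPM), and the other 5 lay within the range of the neuroblast-like sums. By mouse, St3gal5 was at 19.8, 40.6 and 176 CPM (lowest, median and highest), with the median inside the neuroblast-like range. The cluster had 4 of 17 neuroblast-like markers higher, too few to be named. Human MYCN was at 54.1, 237 and 382 CPM in it (lowest, median and highest mouse), from 350 UMIs. Over all 12 libraries, log-normalized clustering left 0 cells unnamed and named 5092 cells neuroblast-like, against 3108 in the main clustering. A cluster of 83 cells with mixed lymphocyte markers held B4galnt1 at 99.4 CPM (8 UMIs), Cd24a at 62.1 CPM (5 UMIs) and Cd47 at 459.5 CPM (37 UMIs). A cluster of 13 cells held Ncam1 at 2911 CPM (29 UMIs), L1cam at 803 CPM (8 UMIs), Cd47 at 401 CPM (4 UMIs) and Gpc2 with 1 UMI.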

How the results depend on the processing

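Of 100 counts of called genes recomputed under an alternative, 78 stayed within 1.5 times the value given and 22 did not; the cause was not tested beyond the numbers of genes and cells entering. With no filter on low counts, the calls were 7473 against ganglion-like cells, 7744 against Schwann-like cells, 7018 (endothelial-like), 5999 (macrophage-like), 4756 (fibroblast-like) and 4892 (myofibroblast-like), and 3203 between phases. Without replicate 2 they were 2645 (endothelial-like), 2269 (macrophage-like) and 1589 (fibroblast-like). With the strict filter on cells (500 genes, 5% mitochondrial UMIs) they were 2590 (endothelial-like) and 2497 (macrophage-like), and with at least 1000 UMIs per cell 2564 and 2167. Log-normalization gave 1328 (macrophage-like) and 556 (fibroblast-like), the low-depth cluster added to neuroblast-like cells 1108 and 667, at least 10 cells per sum 2269 (macrophage-like), at least 500 UMIs per barcode 1751 and resolution 1.0 330 (both fibroblast-like). Without the 5% of cells with most UMIs the ganglion-like count was 3191. The last setting, the low-depth cluster and the cycle split within cells under 0.2 on the axis were chosen after seeing the data.

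Of 478 member differences under alternatives, none that was called changed direction, 12 lost and 4 gained their call. Cd47 against myofibroblast-like cells (7 alternatives) and L1cam against them (3, highest adjusted p 0.0596) account for 10 of the losses. Dropping the replicate block, so that pairing within mice is ignored, changed no member's call, and left Cd276 higher by 1.46 in neuroblast-like than in ganglion-like cells. DESeq2's scaling moved the median of all genes by 0.118 (Schwann-like), 0.266 (endothelial-like), 0.537 (macrophage-like) and 0.357 (fibroblast-like), and the percentage of calls that were higher in neuroblast-like cells from 52.8 to 63.5, 59.2 to 75.3 and 59.6 to 71.2 in the last 3. The strict filter, at least 1000 UMIs and at least 10 cells per sum left too few mice for fibroblast-like cells, as did the first 2 for myofibroblast-like cells; the phase test has 1000 UMIs built in. At the planned limit the intermediate range had 5 mice. Log-normalization, the low-depth cluster, resolution 1.0 and the strict filter gave 6 or 7 mice and a fit, with Gpc2 at -0.96 to -2.84 and its call lost under log-normalization (adjusted p = 0.181). Shares moved with depth in 32 of 54 cases.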
